A study of Mus musculus with 12 samples.

Results

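The homeobox genes outside the Hox clusters encode transcription factors that bind DNA through a homeodomain, and 67 of the 32052 genes in the deposited count table belonged to the families described here. Within the families they were taken by name, as the protein-coding genes whose numbered symbols share their stem with Six2, Irx1, Meis1, Pbx3, Pknox1, Tgif1, Nkx2-3, Pitx1, Prrx1, Msx1, Dlx1, Lhx1, Isl1, Barx1, Tlx2, Tshz1, Zfhx3, Zeb1, Satb1 or Cux1. The families themselves were chosen with earlier results of these data known. Of these 67 genes, 36 had enough reads to be tested and 31 did not. In both tissues Meis2 and Tshz2 rose and Nkx2-3 fell in the stromal cells that carried GFP from an Rspo3 reporter. Zeb1, Pbx3 and Isl2 rose and Msx1 and Lhx6 fell in the small intestine, while Pitx1, Prrx2, Pknox2, Tshz1 and Zeb2 fell in the colon. Of these, only Prrx2 passed the test for a difference between the tissues. In the colon Zeb1, Pbx3 and Isl2 were also higher and Lhx6 lower with GFP, without overlap between groups, but missed the threshold. The same held for a lower Pknox2 in the small intestine. For Msx1, Pitx1, Tshz1 and Zeb2 the groups of the other tissue overlapped. Among GFP-negative cells, Pitx1, Isl1 and Prrx2 were higher in the colon than in the small intestine.

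The study sequenced total RNA of cells sorted from the mouse gut wall as negative for EPCAM, an epithelial surface protein, and for CD45, a leukocyte surface protein. All mice were of C57Bl6 background and 8 to 12 weeks old, and the sorted cells were divided by whether they expressed an Rspo3-GFP transgene. Rspo3 encodes a secreted protein that amplifies Wnt signalling. The 12 libraries formed 4 groups of 3, one for each tissue (small intestine or colon) and each GFP state (negative or positive). The labels give no further detail of the transgene. The labels do not say whether replicates came from separate or pooled mice, so p-values measure only the spread between these libraries, which may be technical.

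As background, the classes of homeodomain factor have different known roles. Factors of the TALE class (Meis, Pbx, Pknox, Tgif and Irx), named for a loop of extra amino acids in the homeodomain, bind DNA beside Hox proteins or act as repressors. NK factors and the paired-like Pitx and Prrx factors pattern embryonic mesenchyme, and LIM factors (Isl and Lhx) specify cell types in nerve, heart and limb. Zeb factors combine zinc fingers with a homeodomain and repress epithelial genes, whereas Tshz, Zfhx, Satb and Cux proteins are large regulators of chromatin and transcription.

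The 250 bases just before the RefSeq transcription start of Nkx2-3, Tshz2 and Msx1 are printed because these genes changed with GFP in both tissues or, for Msx1, in the small intestine. Each reads 5′ to 3′ on the gene's strand in lower case, with a match to a searched motif in capitals. The sequences come from RefSeq on build GRCm38.p6, at chr19:43612075-43612324 on the plus strand for Nkx2-3, chr2:169632259-169632508 on the plus strand for Tshz2 and chr5:37824586-37824835 on the minus strand for Msx1. All 3 windows lay outside annotated exons. The GENCODE gene model starts at the same base for Nkx2-3, 2 bases further downstream for Msx1 and 504 bases further downstream for Tshz2.
Nkx2-3: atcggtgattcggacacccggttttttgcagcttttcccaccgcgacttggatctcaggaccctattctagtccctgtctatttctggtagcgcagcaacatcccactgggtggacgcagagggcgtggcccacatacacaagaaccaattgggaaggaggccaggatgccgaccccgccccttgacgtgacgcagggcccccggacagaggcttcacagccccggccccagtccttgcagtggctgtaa
Tshz2: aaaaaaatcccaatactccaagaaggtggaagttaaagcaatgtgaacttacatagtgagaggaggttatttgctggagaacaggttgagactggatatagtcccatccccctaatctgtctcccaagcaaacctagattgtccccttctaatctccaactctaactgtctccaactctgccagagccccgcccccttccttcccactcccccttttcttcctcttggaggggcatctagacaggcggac
Msx1: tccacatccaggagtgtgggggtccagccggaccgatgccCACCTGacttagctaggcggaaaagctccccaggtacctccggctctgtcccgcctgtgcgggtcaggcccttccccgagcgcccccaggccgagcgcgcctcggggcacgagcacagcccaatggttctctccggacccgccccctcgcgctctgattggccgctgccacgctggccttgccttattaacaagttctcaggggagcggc
The motifs searched, on both strands, were TGACAG (the core read by Meis, Pknox and Tgif factors), TGATNNAT (Pbx with Hox), CAAGTG (the Nkx2 core), TAATCC (Pitx), CAGGTG (the E-box read by Zeb factors) and TAATTA (a general homeodomain core). The Msx1 window held CACCTG, the Zeb E-box read on the other strand, and the windows of Nkx2-3 and Tshz2 held none of these motifs. Among all 27025 promoters of the table, CAGGTG occurred in 17.1%, TGACAG in 16%, CAAGTG in 11.6%, TGATNNAT in 7.91%, TAATCC in 6.38% and TAATTA in 4.9%. Of the 46 homeobox genes with an entry, 5 held CAGGTG, 6 held TGACAG, 2 each held CAAGTG, TGATNNAT and TAATTA, and 1, Isl1, held TAATCC. A match is a description of letters and not a binding site.

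Library totals ranged from 6489835 to 12286054 counts. Rspo3, whose reporter defined the sort, averaged 8.99 ± 4.59 counts per 1000000 (CPM; SD, n = 3) in the GFP-negative and 193 ± 2.15 in the GFP-positive libraries of the small intestine, and 3.76 ± 2.38 against 132 ± 24.9 in the colon. CPM here is scaled by the trimmed mean of M-values (TMM), a correction for library composition. The GFP-positive sorts carried more RNA of 2 stromal cell types in both tissues: of 7 lymphatic endothelial markers 6 rose in each tissue, and of 7 markers of Grem1-expressing trophocytes 6 rose among small intestinal and 5 among colon cells. Fibroblast markers rose in the small intestine (9 of 11) and not in the colon (0 higher and 1 lower of 11). Mitochondrial ribosomal RNA took 9.73% to 12.7% of counts in the GFP-negative and 5.35% to 7.92% in the GFP-positive libraries of the small intestine. In such bulk samples fewer cells of a type and less RNA per cell cannot be told apart.

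Zeb2 was the most abundant of these factors once gene length was taken into account. Length-normalised transcript abundance (TPM), rescaled so that protein-coding genes sum to 1000000 in each library, allows levels to be compared between genes. On that scale the level averaged over all 12 libraries was 543 for Zeb2, 291 for Zeb1, 106 for Nkx2-3, 98.3 for Meis2, 96.5 for Tshz2 and 67.9 for both Cux1 and Pitx1. The order depended on the group for Pitx1, whose TPM level was 230 ± 26.2 (SD, n = 3) in GFP-negative colon cells but 8.18 ± 6.75 in GFP-negative small intestinal cells. Neighbours in this order often lay within their spread in TPM. Zeb2 and Zeb1 were at 332 ± 59.6 and 312 ± 92.3 in colon GFP-positive cells, though at 704 ± 38.4 and 217 ± 64.3 in colon GFP-negative ones. Meis2 and Tshz2, next to each other in the order, were at 155 ± 70.7 and 122 ± 13.2 TPM in small intestinal GFP-positive cells. Six4 had the lowest mean TPM of the tested genes, 0.29.

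**Figure D1:**
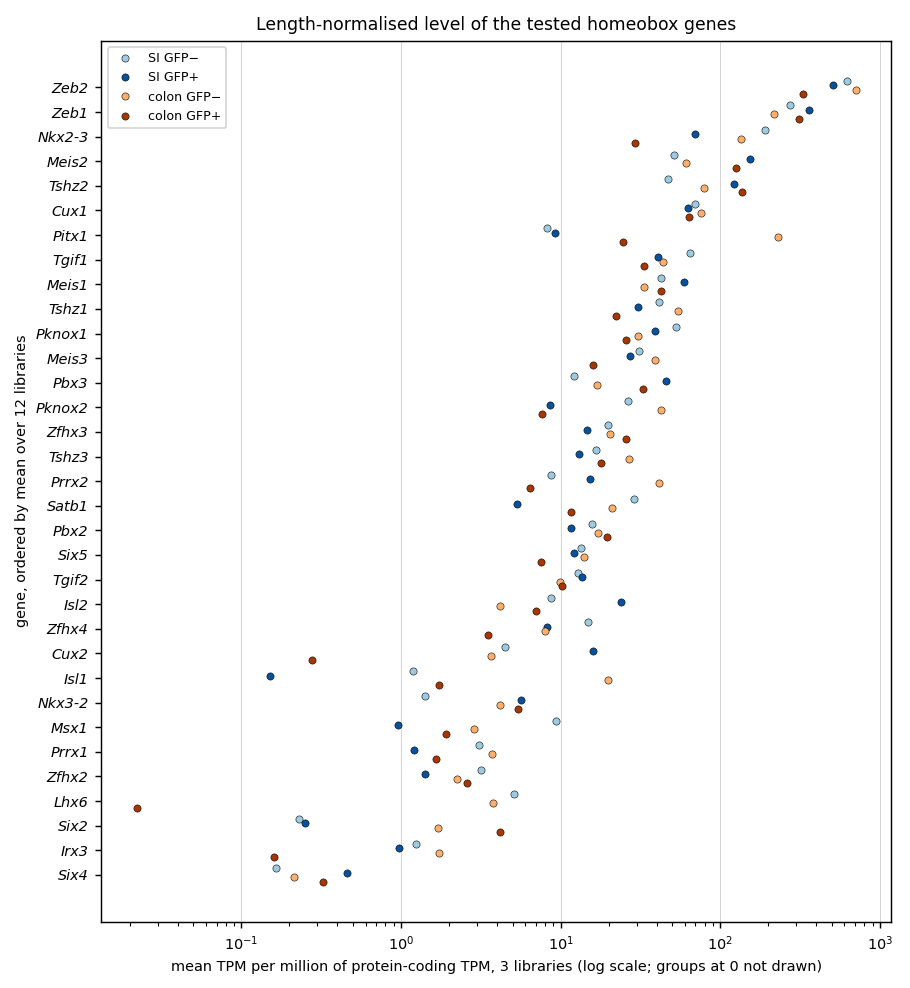
Mean TPM rescaled to the protein-coding total (horizontal, log scale) for 33 of the 36 tested homeobox genes (vertical, ordered by the mean over 12 libraries), with 1 point per group of 3 libraries and groups at 0 not drawn. Zeb2 stands at the top with a mean of 543, and Pitx1 has the colon GFP-negative point at 230 far to the right of its other groups.

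Of the 36 tested genes, 16 passed the test in at least 1 of 5 comparisons and 20 in none, against 18.5% of all genes tested with a call in at least 1; the same share stands behind the counts by class given further on. A gene is said to have risen or fallen, or to be called, where edgeR's quasi-likelihood test gave a Benjamini-Hochberg adjusted p below 0.05 over all 16757 genes tested. In the small intestine 9 of the 36 were called between GFP-positive and GFP-negative cells, 6 higher and 3 lower, against 10.9% of all genes tested (4.24% higher and 6.63% lower). In the colon 9 were again called, 3 higher and 6 lower, against 8.69% of all genes (4.62% higher and 4.06% lower). Called in the same direction in both were 4 genes, 44.4% of each list. Over all genes this held for 3.25%, which is 29.9% of the small intestinal and 37.4% of the colon calls. These 2 comparisons set different libraries against each other, but both come from 1 fit of all 12 libraries with a shared estimate of the spread. The column names of replicate 3 also carry the same number in both tissues, and what that number stands for is not stated. The median log2 difference with GFP was -0.02 for the 36 genes and -0.03 for all genes in the small intestine, and -0.41 against -0.03 in the colon. Between tissues, 4 of the 36 differed in GFP-negative cells, all higher in the colon, against 4.21% of all genes (2.2% higher and 2.01% lower). In GFP-positive cells 1 was higher in the colon, against 4.57% (2.75% higher and 1.81% lower), so the members' share was below that of all genes. The GFP difference itself differed between tissues for 1 gene, lower in the colon, against 2.06% of all genes (1.16% higher and 0.895% lower). Libraries of the groups compared did not overlap for 14 of the 36 with GFP in the small intestine (21.9% of all genes) and for 26 in the colon (35.6% of all genes). Between tissues this held for 18 in GFP-positive cells (24.7% of all genes) and for 13 in GFP-negative cells (22.6% of all genes). Leaving out colon GFP-positive replicate 2 lowered the colon count from 9 of 36 to 5 of 38. Calls over all genes fell in the same fit, from 1456 of 16757 to 816 of 17946. The counts between tissues and for the difference of differences also moved by more than 1.5 times with single libraries, down to 0 or up to 6. Calls over all genes moved in those fits too, as given further on. With limma on the log2(TPM + 1) values the calls that ended included those of Isl2, Lhx6, Meis2, Nkx2-3 and Zeb1 in the small intestine and of Meis2 and Zeb2 in the colon. With no filter on low counts they included those of Pitx1 and Prrx2 in the colon, Prrx2 in the difference of differences and Isl1 in GFP-negative cells. A fit of the small intestinal libraries alone ended the calls of Nkx2-3 (edgeR adjusted p = 0.144) and Zeb1 (adjusted p = 0.109). It called 7 of 33 members, and calls over all genes fell from 1821 of 16757 to 850 of 15367. A fit of the colon libraries alone called 17 of 34, against 20.6% of all genes in that fit, and added Irx3, Isl1, Meis1, Pbx3, Satb1, Six5, Tshz3 and Zeb1 (edgeR adjusted p from 1.13e-05 for Isl1 to 0.0412 for Meis1). In the colon DESeq2 added Isl1, Lhx6 and Zeb1, with 12 of 67 called against 2071 of 31710 genes. In the small intestine it added Barx2, Pknox2, Satb1 and Tgif1, with 13 of 67 called against 2645 of 31710 genes.

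**Figure D2:**
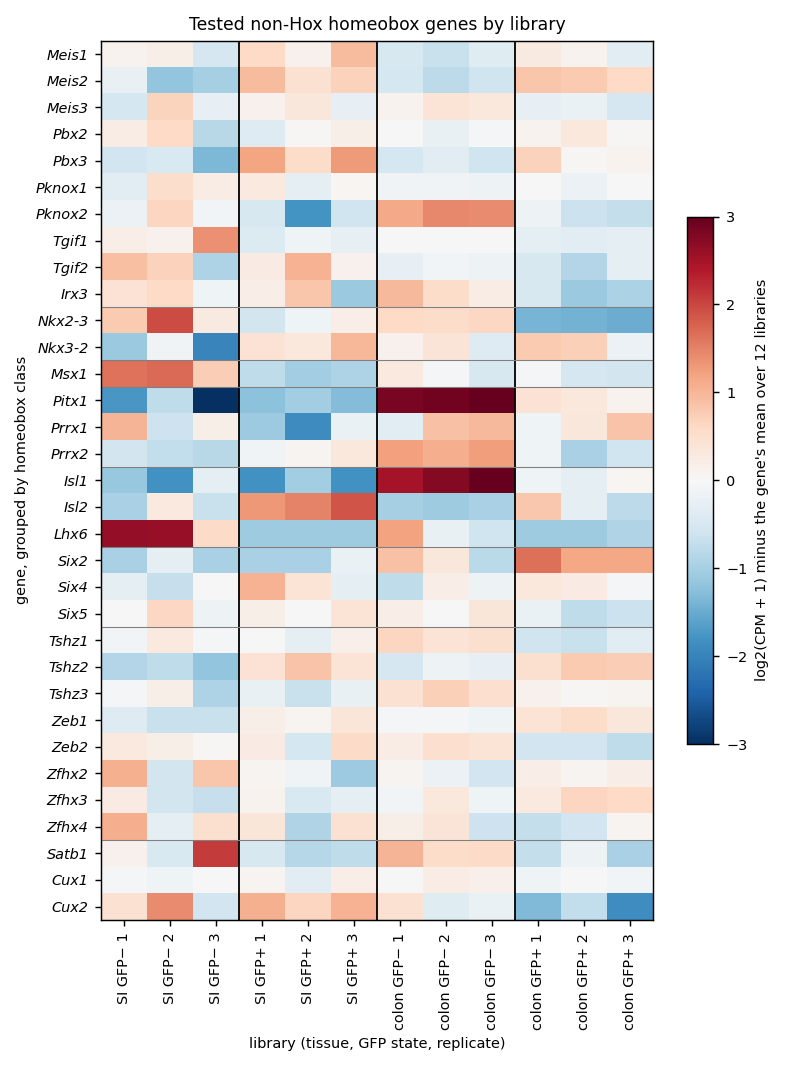
Each cell shows log2(CPM + 1) of 1 of 33 tested homeobox genes (rows, grouped by class) in a library (columns, grouped by tissue and GFP state), minus the gene's mean over the 12 libraries. Pitx1 and Isl1 are high in the 3 colon GFP-negative libraries, Msx1 and Lhx6 in small intestinal GFP-negative libraries, and Meis2 and Tshz2 in the 6 GFP-positive libraries.

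Among the TALE factors, 4 of the 11 tested genes were called. Meis2, which binds DNA together with Pbx partners, rose in both tissues. Its CPM was 57, 29.1 and 33.1 in GFP-negative and 131, 92.6 and 109 in GFP-positive small intestinal libraries. In the colon it was 46.1, 38.3 and 44.2 against 120, 117 and 103 CPM. The log2 difference was 1.48 ± 0.24 (edgeR adjusted p = 0.00209) for the former tissue and 1.41 ± 0.24 (adjusted p = 0.00279) for the latter, with no overlap between groups. Its relative Meis1 read 78.6, 83 and 51.3 CPM without and 112, 80.5 and 142 CPM with GFP in the small intestine, and 52.5, 45.6 and 56.5 against 88.9, 79 and 57.8 CPM in the colon. Meis1 did not pass the test in the small intestine (log2 difference 0.65 ± 0.25, edgeR adjusted p = 0.127), where its groups overlapped, or in the colon (0.55 ± 0.25, adjusted p = 0.251), where they did not.

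Pbx3, a further Pbx cofactor, read 15.4, 16.8 and 8.68 CPM without GFP and 55, 34.7 and 58.2 CPM with it in the small intestine, a log2 difference of 1.85 ± 0.30 (edgeR adjusted p = 0.00194). In the colon its log2 difference of 0.82 missed the threshold (adjusted p = 0.119), although the GFP-positive values of 38.5, 24.2 and 25.3 CPM all lay above the GFP-negative values of 16, 18.7 and 15.2. The difference between the tissues was not called (edgeR adjusted p = 0.255). Pknox2, a TALE factor that also pairs with Pbx, moved the other way. It fell in the colon from 36.4, 45.1 and 44.7 CPM to 14.2, 9.9 and 9.37 CPM, by 1.91 ± 0.37 on the log2 scale (edgeR adjusted p = 0.00554). Its small intestinal CPM was 13.9, 25.5 and 15.1 without and 11.1, 3.94 and 10.2 with GFP, and the log2 difference of -1.11 was not called (adjusted p = 0.0723). Of the remaining TALE genes, Tgif1, a repressor in TGF-beta signalling, came closest in the small intestine with a log2 difference of -0.98 (adjusted p = 0.0502). Its GFP-negative values were 29.2, 27.6 and 66.9 CPM, all above the GFP-positive values of 18.7, 22.9 and 21. Tgif1 was called there by DESeq2 (adjusted p = 0.0211) and by edgeR with no filter (adjusted p = 0.028) or with RLE size factors, another scaling (adjusted p = 0.0455). It was also called by edgeR without GFP-negative replicate 1 (adjusted p = 0.0306) or 2 (adjusted p = 0.0148). In GFP-negative replicate 3 the summed leukocyte, epithelial, mesothelial and Cajal cell markers were also highest of the group. The part of RNA of these cell types in the Tgif1 difference was not tested. Irx3, an Iroquois factor, stayed at or under 3.23 CPM in every library, with 1.92, 2.3 and 0.965 against 1.5, 2.86 and 0 CPM in the small intestine and 3.23, 2.17 and 1.52 against 0.549, 0 and 0.114 CPM in the colon. It was not called in the colon (log2 difference -3.26 ± 1.33, edgeR adjusted p = 0.183), where its groups did not overlap.

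Nkx2-3, an NK factor needed for the development of gut mesenchyme and of mucosal vessels, fell with GFP in both tissues. In the colon the GFP-negative libraries read 134, 130 and 136 CPM and the GFP-positive ones 32.7, 32.4 and 30.9 CPM. The colon groups were tight and far apart, with a log2 difference of -2.05 ± 0.36 (edgeR adjusted p = 0.00318). Small intestinal values were 151, 344 and 106 CPM without and 59.2, 79.8 and 102 CPM with GFP, a log2 difference of -1.32 ± 0.35 (adjusted p = 0.028). The small intestinal groups nearly met, at 106 and 102 CPM. That call ended without GFP-negative replicate 2 (log2 difference -0.68, edgeR adjusted p = 0.058), without GFP-positive replicate 1 (adjusted p = 0.11) or 2 (adjusted p = 0.0921), and with the replicate number as a block (adjusted p = 0.0651). GFP-negative replicate 2 also had the highest summed smooth muscle marker level, 4150 CPM against 2960 and 1521 in replicates 1 and 3. The same library was highest for pericyte markers (1822 against 875 and 503 CPM) and for fibroblast markers (23480 against 8146 and 9560 CPM), which rose with GFP there. It was also highest for trophocyte and telocyte markers. It was not highest for endothelial, glial, neuronal, Cajal cell, mesothelial, epithelial or leukocyte markers. Smooth muscle markers as a list fell with GFP, namely 4 of 7 among small intestinal cells (1521 to 4150 against 880 to 1002 CPM) and 5 of 7 among colon cells (2911 to 3830 against 636 to 775 CPM), with none at 0 in any group. The part of smooth muscle RNA, or of RNA of any other cell type, in the Nkx2-3 difference was not tested. Nkx3-2, the other tested NK gene and a skeletal and gut patterning factor, was not called, with a small intestinal log2 difference of 2.04 (edgeR adjusted p = 0.173) and a colon one of 0.52 (adjusted p = 0.817).

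Of 6 tested genes for adhesion of leukocytes to mucosal venules (8 were listed), among them the known Nkx2-3 target Madcam1, 5 fell in the small intestine. In the colon edgeR called 0 of 6, with 3 lower and 1 higher at an unadjusted p under 0.05, and DESeq2 called 1 lower and 1 higher. Selp, which encodes P-selectin, averaged 440 ± 244 CPM (SD, n = 3) without and 6.92 ± 5.44 with GFP in the small intestine. Madcam1, the mucosal addressin, averaged 45.6 ± 25.8 and 0.416 ± 0.72. The log2 differences were -5.99 ± 0.88 (edgeR adjusted p = 0.00218) for Selp and -6.60 ± 1.53 (adjusted p = 0.0211) for Madcam1. Of 7 blood endothelial markers 6 fell in the same comparison, from 563 to 2177 CPM in sum to between 70.8 and 252 CPM, with none at 0. Both lists contain Ackr1, so they are not separate. The part of blood endothelial RNA in the differences of the venule genes was not tested.

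Msx1, an NK-like factor that is induced by BMP signals in many tissues, had 10.3, 10.9 and 5.15 CPM in the small intestine without GFP and 1.16, 0.788 and 0.945 CPM with it. Every GFP-positive library was far below every GFP-negative one, and the log2 difference was -3.16 ± 0.54 (edgeR adjusted p = 0.00272). In the colon the groups overlapped, at 3.52, 2.51 and 1.65 against 2.53, 1.58 and 1.49 CPM, and Msx1 was not called. The difference between the tissues was 2.72 on the log2 scale and missed the threshold (edgeR adjusted p = 0.0771), whereas DESeq2 called it (adjusted p = 0.013). Msx1 was the only tested gene among the 10 of the Msx, Dlx, Barx and Tlx families. Several marker lists fell with it in the small intestine: blood endothelium as above, glia (6 of 6 tested, 122 to 275 against 1.42 to 5.32 CPM in sum, with the defining marker Foxd3 at 0 in the GFP-positive libraries) and epithelium (7 of 8, 198 to 678 against 3.08 to 10.8 CPM, with none at 0). Their part in the Msx1 difference was not tested.

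Pitx1, a paired-like factor known for hindlimb and pituitary development, was chiefly a gene of the GFP-negative colon sort. The CPM there was 124, 128 and 141, against 22.6, 20.6 and 17.6 in GFP-positive colon libraries. Small intestinal values were 4.21, 9.3 and 0.482 without and 6.41, 7.49 and 6.02 with GFP. The colon GFP-negative libraries were thus above all 9 others, and the small intestinal groups overlapped. Between GFP-negative cells of the 2 tissues the log2 difference was 4.76 ± 0.61 (edgeR adjusted p = 0.0028, higher in the colon), and within the colon Pitx1 fell with GFP by 2.69 ± 0.54 (adjusted p = 0.00943). The latter call ended without colon GFP-positive replicate 2 (adjusted p = 0.0569). The small intestinal log2 difference with GFP was 0.46 and not called (adjusted p = 0.695). The difference of the 2 GFP differences was -3.15 and missed the threshold (edgeR adjusted p = 0.063). It was called by DESeq2 (adjusted p = 3.77e-04), limma-voom (adjusted p = 0.0288) and limma on log2(TPM + 1) (adjusted p = 0.00541), and by edgeR without small intestinal GFP-negative replicate 2 (adjusted p = 0.00425) or 3 (adjusted p = 0.005).

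Prrx2, a paired-related factor of mesenchyme, showed the only difference between the GFP effects of the 2 tissues that edgeR called with all 12 libraries. Its CPM was 1.56, 1.25 and 1.13 without and 2.5, 2.96 and 3.66 with GFP in the small intestine. In the colon it was 7.77, 6.97 and 7.98 without and 2.42, 0.924 and 1.49 with GFP. The groups did not overlap in either tissue and were ordered in opposite ways. The log2 difference was 1.19 in the small intestine (not called, edgeR adjusted p = 0.156) and -2.22 ± 0.50 in the colon (adjusted p = 0.0132), and their difference was -3.41 ± 0.70 (adjusted p = 0.0285). The call on that difference ended in 8 of the 12 fits that left out 1 library, namely those without small intestinal GFP-negative replicate 1, GFP-positive replicate 1 or 3, any colon GFP-negative replicate, or colon GFP-positive replicate 2 or 3 (adjusted p up to 0.0941). It also ended with the replicate number as a block (log2 difference -3.49, adjusted p = 0.0588). The colon call ended in 5 such fits, without any colon GFP-negative replicate or without GFP-positive replicate 2 or 3 (adjusted p up to 0.0744). Among GFP-negative cells Prrx2 was higher in the colon, by 2.51 ± 0.50 (edgeR adjusted p = 0.0172), a call that ended without any 1 of the colon GFP-negative replicates (adjusted p up to 0.0843).

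Prrx1, the paralogue of Prrx2, was not called in any comparison. It read 7.94, 1.88 and 4.02 against 1.08, 0.197 and 2.83 CPM in the small intestine and 2.49, 7.2 and 7.73 against 3.08, 4.62 and 6.97 CPM in the colon. Its groups overlapped in both tissues.

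**Figure D3:**
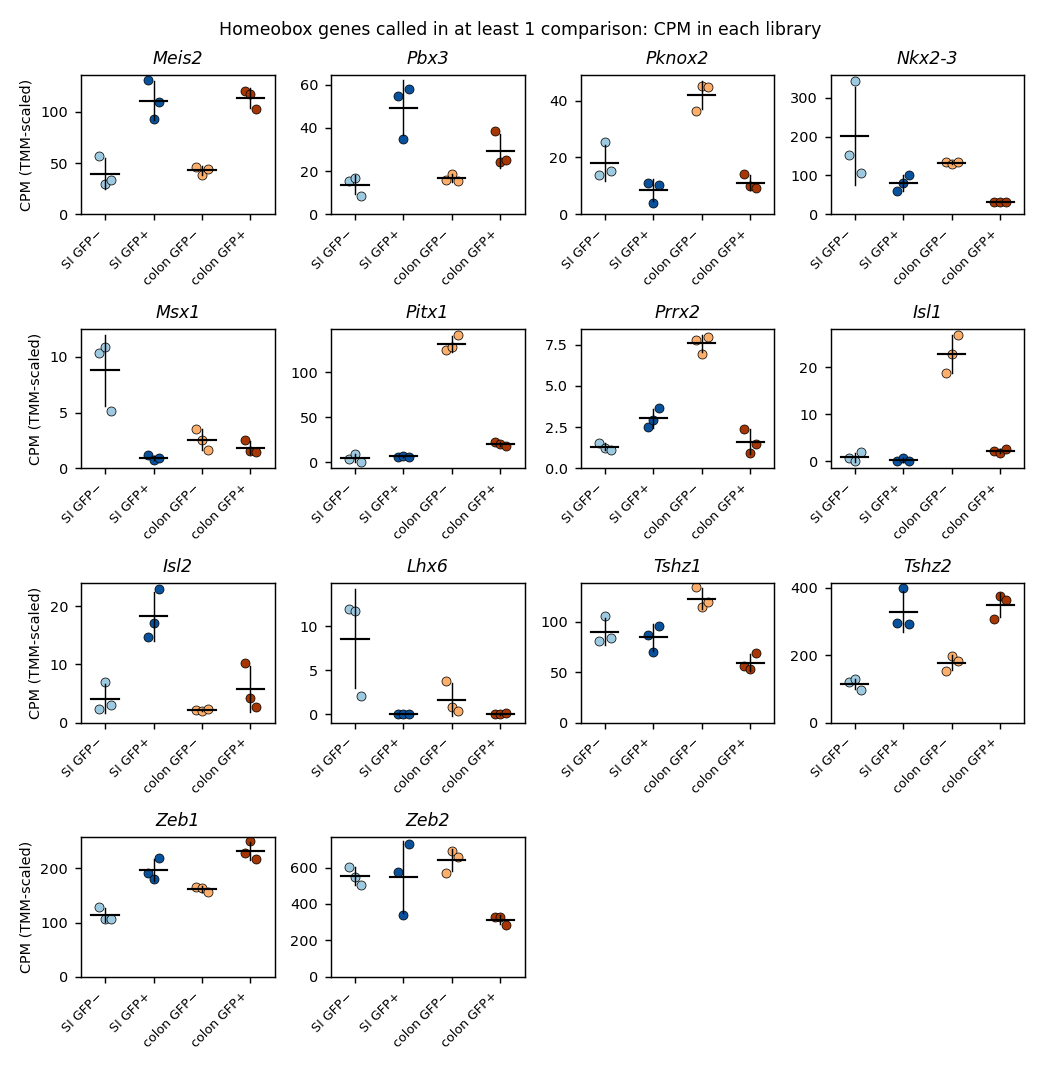
CPM (vertical, linear) of 14 of the 16 homeobox genes called in at least 1 comparison, with 1 point per library, a bar at the mean and a line of 1 SD, in 4 groups of 3 (horizontal). Pitx1 and Isl1 stand out in the colon GFP-negative group at 124 to 141 and 18.8 to 26.9 CPM, and Lhx6 has no read in small intestinal GFP-positive libraries.

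All 3 tested LIM genes, of 9 present, were called, each in 1 comparison. Isl1, a marker of motor neurons, heart progenitors and some gut mesenchyme, read 18.8, 22.7 and 26.9 CPM in the colon without GFP and 2.2, 1.85 and 2.63 CPM with it. Small intestinal libraries read 0.601, 0 and 1.93 CPM without and 0, 0.69 and 0 CPM with GFP. Colon GFP-negative cells were again the high group, with no overlap. The log2 difference between GFP-negative cells of colon and small intestine was 4.82 ± 1.09 (edgeR adjusted p = 0.0323). The call ended without small intestinal GFP-negative replicate 1, any colon GFP-negative or any colon GFP-positive replicate (adjusted p up to 0.129). Within the colon the log2 difference with GFP was -3.35 ± 0.99 and missed the threshold (adjusted p = 0.0595).

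Isl2, a close relative of Isl1, was highest in GFP-positive small intestinal cells. It read 2.28, 6.89 and 3.06 CPM without and 14.7, 17 and 22.9 CPM with GFP in the small intestine, and 2.2, 2.06 and 2.28 against 10.2, 4.23 and 2.74 CPM in the colon. Groups did not overlap in either tissue, but the test was passed only in the small intestine (log2 difference 2.15 ± 0.52, edgeR adjusted p = 0.0182; colon 1.39, adjusted p = 0.145). The difference between tissues was not called. The small intestinal call ended without GFP-negative replicate 1 (adjusted p = 0.063) or 3 (adjusted p = 0.054) or GFP-positive replicate 3 (adjusted p = 0.061). Lhx6, a factor of cortical interneurons and craniofacial mesenchyme, read 11.9, 11.7 and 2.09 CPM in the small intestine without GFP and 0 in all 3 libraries with it. With 224 counts against 0 it was at least 87.4-fold lower with GFP, taking 3 counts over the group as the floor (edgeR adjusted p = 0.00429). In the colon Lhx6 read 3.81, 0.799 and 0.38 against 0, 0 and 0.114 CPM and missed the threshold (adjusted p = 0.0502).

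Telocyte markers moved with the colon GFP-negative group in which Pitx1, Isl1 and Prrx2 were high. Telocytes are subepithelial fibroblasts that express Foxl1 and BMP ligands. Of 10 such markers 8 fell with GFP in the colon, from 2345 to 2387 CPM in sum to between 588 and 615 CPM, and 5 were higher in the colon than in the small intestine among GFP-negative cells (658 to 1330 CPM in the small intestine). None was at 0 in any group. With GFP in the small intestine edgeR called 0 of the 10, 4 were lower at an unadjusted p under 0.05, and DESeq2 called 2 lower. Other lists also fell with GFP in the colon: smooth muscle (5 of 7), pericyte (4 of 6) and glial markers (2 of 6). Cajal cell (3 of 4) and blood endothelial markers (3 of 7) did so with 1 higher in each list. Among GFP-negative cells 0 smooth muscle and 0 Cajal cell markers differed between tissues. There 1 marker each of pericytes, glia and blood endothelium was lower in the colon. The part of RNA of telocytes or any other cell type in the Pitx1, Isl1 and Prrx2 differences was not tested.

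Among the zinc finger homeobox genes all 8 passed the filter and 4 were called. Tshz2, a teashirt repressor, read 119, 128 and 96.3 CPM without and 294, 399 and 292 CPM with GFP in the small intestine. In the colon it read 154, 197 and 183 against 307, 375 and 364 CPM. Groups did not overlap. Small intestinal cells gave a log2 difference of 1.52 ± 0.20 (edgeR adjusted p = 5.89e-04) and colon cells one of 0.97 ± 0.19 (adjusted p = 0.00698). Both calls held in all 20 other fits. Tshz1 was called in the colon, where it fell from 134, 115 and 119 CPM to 56.3, 53.5 and 68.7 CPM, a log2 difference of -1.05 ± 0.18 (edgeR adjusted p = 0.00299). Small intestinal Tshz1 read 80.6, 105 and 84.3 against 86.8, 70.2 and 96.1 CPM, with overlapping groups and a log2 difference of -0.09. The difference between tissues was -0.95 and missed the threshold (edgeR adjusted p = 0.0763). DESeq2 called it (adjusted p = 0.0142), as did edgeR without small intestinal GFP-negative replicate 2 (adjusted p = 0.0236).

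Zeb1, a repressor of epithelial genes, rose in the small intestine from 129, 106 and 107 CPM to 191, 181 and 219 CPM, by 0.79 ± 0.16 on the log2 scale (edgeR adjusted p = 0.00651). In the colon its GFP-positive values of 227, 250 and 217 CPM were also all above the GFP-negative values of 166, 163 and 156 CPM, but the log2 difference of 0.52 missed the threshold (adjusted p = 0.0617). Zeb2, its paralogue, fell in the colon from 572, 690 and 656 CPM to 327, 329 and 287 CPM, by 1.03 ± 0.25 (edgeR adjusted p = 0.0195). The colon call ended without GFP-negative replicate 2 or 3 or any GFP-positive replicate (adjusted p from 0.0734 to 0.0862). Small intestinal Zeb2 read 604, 551 and 503 CPM without and 579, 340 and 729 CPM with GFP, and the log2 difference was -0.01 (adjusted p = 0.99). The GFP-positive range there enclosed the whole GFP-negative range. The difference between tissues was -1.02 and not called (edgeR adjusted p = 0.171). Zfhx3 was not called, at 200, 113 and 103 against 179, 121 and 136 CPM in the small intestine and 157, 209 and 152 against 205, 260 and 253 CPM in the colon (log2 differences 0.07 and 0.47).

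Epithelial genes that Zeb factors are known to repress fell with GFP for 8 of 13 tested genes in the small intestine (14 were listed). In the colon edgeR and DESeq2 called 0 of 13, and 1 was lower at an unadjusted p under 0.05. Small intestinal examples are Tjp3, a tight junction scaffold, at 14.6 ± 6.33 against 0.199 ± 0.17 CPM (SD, n = 3), and Cldn3, a claudin, at 21.8 ± 6.34 against 0.139 ± 0.24 CPM. Colon means were 27.2 ± 9.14 against 13.4 ± 10.1 CPM for Tjp3 and 47.2 ± 20.6 against 17.9 ± 14.1 CPM for Cldn3. In GFP-positive cells 7 of the 13 were higher in the colon. The epithelial marker list, which shares genes with this one, fell alike in the small intestine (7 of 8) and not in the colon (0 of 8, 916 to 2096 against 259 to 1436 CPM in sum). The part of residual epithelial RNA was not tested.

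Satb1, a chromatin organiser of the CUT class with a known role in T cells, read 19.8, 13 and 80.9 CPM without and 12.7, 9.46 and 10.3 CPM with GFP in the small intestine, and 37.4, 26.8 and 27.4 against 10.5, 16 and 8.68 CPM in the colon. Groups did not overlap in either tissue, but neither difference passed (log2 difference -1.80, edgeR adjusted p = 0.062, and -1.38, adjusted p = 0.18). DESeq2 called the small intestinal difference (adjusted p = 0.00685), as did edgeR without GFP-negative replicate 1 (adjusted p = 0.0458) or 2 (adjusted p = 0.0098). The colon difference was called by edgeR without small intestinal GFP-negative replicate 3 (adjusted p = 0.00649) and in the fit of the colon libraries alone. The high value of 80.9 CPM belonged to small intestinal GFP-negative replicate 3. There 8 leukocyte markers summed to 1013 CPM, against 15.5 and 10.3 in replicates 1 and 2. As a list, 1 of 5 tested leukocyte markers fell with GFP in the small intestine, and Cd3e was at 0 in the GFP-positive libraries. The same replicate 3 library was also highest of its group for epithelial, mesothelial and Cajal cell markers. In the colon the leukocyte sums were 12.9 to 28.2 CPM without and 7.36 to 23.65 CPM with GFP. The part of leukocyte RNA, or of RNA of any other cell type, in the Satb1 differences was not tested. Cux1 was even across groups, at 131 ± 6.7, 137 ± 24, 149 ± 11 and 130 ± 6 CPM (SD, n = 3). Cux2 was not called (log2 difference between tissues in GFP-positive cells -3.44, edgeR adjusted p = 0.0624), although these groups did not overlap. That difference was called by DESeq2 (adjusted p = 0.00142) and limma on log2(TPM + 1) (adjusted p = 0.0382). It was also called by edgeR with no filter (adjusted p = 0.0162), with the replicate number as a block (adjusted p = 0.04) and without small intestinal GFP-negative replicate 3 (adjusted p = 0.0318).

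Of the 3 tested genes of the sine oculis family (Six2, Six4 and Six5), which shape eye, muscle and kidney, edgeR with all 12 libraries and DESeq2 called 0 in any comparison, and at an unadjusted p under 0.05 there was 1 lower with GFP in the colon and 1 higher and 1 lower in the colon among GFP-positive cells. Six2, known from kidney progenitors, read 0, 0.627 and 0 against 0, 0 and 0.709 CPM in the small intestine and 2.64, 1.48 and 0.127 against 5.16, 3.43 and 3.43 CPM in the colon. The colon GFP-positive libraries were the highest of the 12, but the log2 difference of 4.10 ± 1.57 between tissues in GFP-positive cells missed the threshold (edgeR adjusted p = 0.198). Limma on log2(TPM + 1) called it (adjusted p = 0.0179), with a difference of 0.36 on that scale. Six5 was called with GFP in the edgeR fit of the colon libraries alone (log2 difference -0.75, adjusted p = 0.0343).

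**Figure D4:**
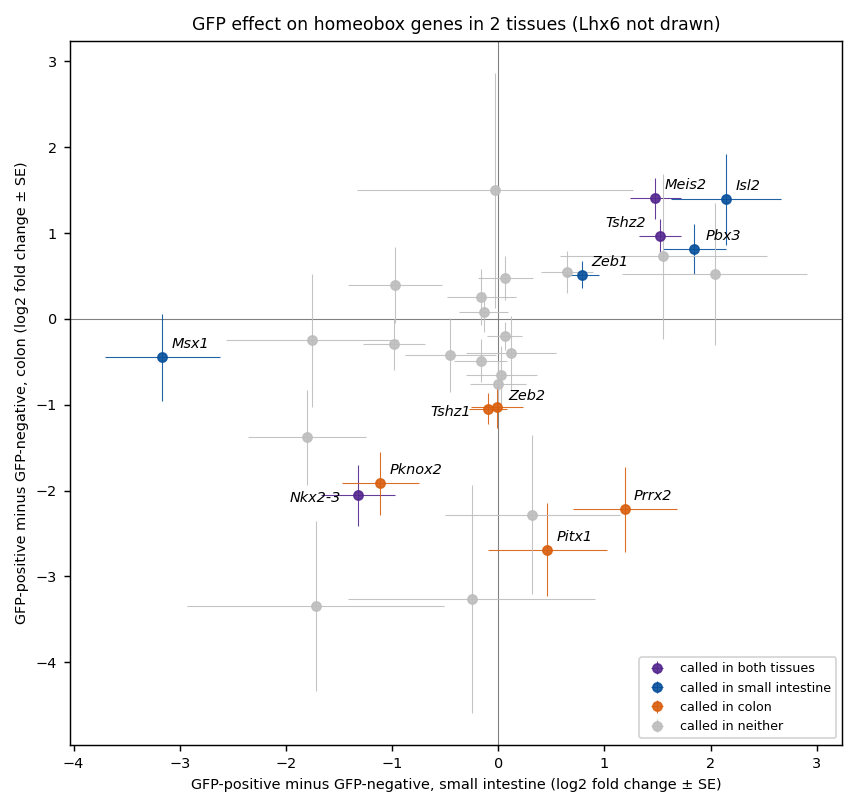
Log2 difference between GFP-positive and GFP-negative cells in the small intestine (horizontal) and the colon (vertical) for 32 tested homeobox genes, with lines of 1 SE and colour for where the difference was called. Lhx6 is not drawn because a group had no reads, and Prrx2 lies at 1.19 and -2.22.

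The 31 genes that did not pass the filter gave few reads. Their counts summed over the 12 libraries ranged from 1 to 62, 18 of them had fewer than 10, and 12 had reads in 1 library only. Barx2, a factor of muscle and epithelial appendage development, had the highest single value, 4.34 CPM in small intestinal GFP-negative replicate 3. Its small intestinal counts were 7, 16 and 27 without and 0 in all 3 libraries with GFP, at least 23.3-fold lower with the floor set at 3 counts over the group. Without GFP-negative replicate 3 the bound was 12.8-fold. Barx2 was called in this comparison by edgeR with no filter (adjusted p = 0.0236), by DESeq2 (adjusted p = 0.00225) and by edgeR in 4 of the fits that left out 1 library (adjusted p up to 0.0441). No other of the 31 genes was called in any alternative run. Barx1, a stomach mesenchyme factor, had 10 counts in 5 libraries, 8 of them in GFP-negative colon cells. Msx2 had 5 counts in 2 libraries and Irx5 had 2 counts in 1 library. Dlx1 had 31, 3 and 0 counts in GFP-negative small intestinal and 0 in GFP-negative colon libraries, at least 10.5-fold lower in the latter. That bound rested on small intestinal replicate 1, without which 3 counts were left and none could be given.

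Homeobox genes of other families changed with GFP as well. Among 59 listed genes with a row of counts, 26 were tested. GFP-positive cells showed 2 higher and 7 lower in the small intestine and 3 higher and 1 lower in the colon. Prox1, the lymphatic endothelial master regulator and itself one of the lymphatic markers, averaged 16.3 ± 15 against 240 ± 131 CPM (SD, n = 3) in the small intestine and 7.11 ± 3.41 against 367 ± 18.3 CPM in the colon. Meox1, a mesoderm factor, averaged 10.1 ± 7.04 against 66 ± 48.5 CPM and 6.59 ± 3.2 against 110 ± 11 CPM. Their log2 differences were 3.87 ± 0.68 (edgeR adjusted p = 0.00475) and 5.70 ± 0.75 (adjusted p = 0.00103) for Prox1, and 2.69 ± 0.68 (adjusted p = 0.0298) and 4.07 ± 0.73 (adjusted p = 0.00583) for Meox1. Hhex, an endothelial and endodermal factor, rose in the colon from 2.33 ± 1.87 to 23.9 ± 2.37 CPM. The intestinal epithelial factors Cdx1, Cdx2 and Isx were among those that fell in the small intestine and had no read in its GFP-positive libraries.

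Genes known to respond to BMP signals, an input to Msx factors, fell with GFP for 3 of 9 in the small intestine and 4 of 9 in the colon, with 0 higher in either. The median log2 difference of the 9 was -0.33 and -0.54. Smad9, a BMP signal transducer, averaged 25.9 ± 4.27 CPM without and 3.66 ± 0.72 with GFP in the colon (log2 difference -2.82 ± 0.27, edgeR adjusted p = 9.75e-05). Small intestinal means of 9.3 ± 0.82 and 7.61 ± 1.08 CPM were not called apart. Atoh8 likewise fell in the colon from 17.8 ± 2.96 to 2.35 ± 1.14 CPM and not in the small intestine (14 ± 4.9 and 14.1 ± 3.45). For both genes the difference between tissues was itself called (edgeR adjusted p = 0.00631 and 0.0196). The inhibitory Smad6 fell in both tissues, by 1.17 ± 0.33 (edgeR adjusted p = 0.0371) and 2.24 ± 0.34 (adjusted p = 0.0013) on the log2 scale. Of 5 genes for secreted frizzled-related Wnt antagonists, 1 fell in each tissue and 0 rose. Sfrp5 fell in the small intestine, from 9.4 ± 2.44 to 0.23 ± 0.4 CPM, and Sfrp2 in the colon, from 30.7 ± 24.4 to 0.875 ± 0.52 CPM. Sfrp2 also had no read in the small intestinal GFP-positive libraries, although edgeR did not call it there. Sfrp1, the most abundant of them, averaged 858 ± 458 CPM without and 1725 ± 562 with GFP in the small intestine (log2 difference 1.01 ± 0.33, edgeR adjusted p = 0.0756), and DESeq2 called 1 gene of the list higher and 3 lower there.

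Antisense genes are annotated within the span of 9 of the 16 called genes, among them Pitx1, Tshz2 and Zeb2. Whether the counting used strand is not given in the sources used here, and without strand the reads of such a pair cannot be told apart.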

How the data were processed

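The tools named, without their roles, are Salmon 1.1.0 and R 3.6.1, with genome build mm10, per the submitters' processing notes. The authors deposited a table of expected counts per gene, all whole numbers, and a table of log2(TPM + 1) values. The 32052 genes entered a quasi-likelihood fit in edgeR 4.0.16 (robust option, TMM scaling, minimum count 10) with all 12 libraries, a mean per group and no block, and 16757 genes passed the filter. Alternatives used limma 3.58.1, DESeq2 1.42.0, other scalings and filters, and each library left out.

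The families, gene lists and motifs were chosen with earlier results of these data known. Per-library values are printed for a fixed set of members that passed the filter and for other members among the 6 called with smallest adjusted p in each comparison. Some members (Isl2, Tgif1, Barx2 and others) were given values beyond that. Pathway lists are given by counts with examples. Results of some genes are not reported here, although the counts include them.

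Symbols were matched for 32001 identifiers. Of 78 protein-coding genes of these families in the annotation, 11 were not analysed here. TPM was rescaled because protein-coding genes made up 4.65% to 8.09% of the deposited TPM.

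Labels number replicates 1 to 3 without saying what a number shares. The column names carry 1 further number on all 4 libraries of replicate 3 and another on both of colon replicate 2, with no meaning given, so these libraries may share a source. In the small intestine same-numbered GFP-negative and GFP-positive libraries deviated together (r = 0.323, 0.179 and 0.166 across genes), and in the colon they did not (0.009, 0.047 and 0.090). Between the tissues replicate 3 gave r = 0.223 in GFP-negative and 0.054 in GFP-positive cells. Floors of 3 counts cover counting error only.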

Additional observations from a re-analysis of the deposited data

Results flagged for a closer look

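The GFP difference of Prrx2 in the colon minus that in the small intestine was -3.41 on the log2 scale (SE 0.70, edgeR adjusted p = 0.0285). It is listed because the test of the difference between the 2 tissues passed. The GFP-positive libraries were all higher in the small intestine (3 of 3) and all lower in the colon (3 of 3). Prrx2 levels were low, at 0.924 to 7.98 CPM, and the call did not hold in 8 of 12 fits that left out 1 library. With 3 libraries per group, single values were not tested as outliers.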

How the results depend on the processing

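No alternative changed the sign of a called value: 24 called values were refitted in 479 alternatives, 9 kept their call in every one, and 68 alternatives ended a call. Uncalled values were followed only for the genes that the fixed rule gave per-library values. These 87 values changed sign in 53 of 1709 alternatives and were called in 71. Calls gained by other tested genes, such as Tgif1 and Cux2, are not in these counts. For GFP in the small intestine the count of 9 became 4 with limma on log2(TPM + 1), where calls over all 16757 genes went from 1821 to 671. For GFP in the colon the count of 9 became 17 of 34 when only the compared libraries were fitted, where 3016 of 14633 genes were called. For the difference between tissues of the GFP effect the count of 1 became 0 with no filter and 2 with limma-voom. It became 3 with limma on log2(TPM + 1) and 4 with DESeq2. Calls over all genes were 345 of 16757 in the main fit, 514 of 32052 with no filter and 179 of 16757 with limma-voom. They were 160 of 16757 with limma on log2(TPM + 1) and 1096 of 31710 with DESeq2. For GFP-positive cells between tissues the count of 1 became 2 with RLE size factors, 2 with protein-coding library sizes and 4 with only the compared libraries. It became 2 with limma on log2(TPM + 1) and 8 with DESeq2. Calls over all 16757 genes went from 765 to 774 with RLE size factors, 777 with protein-coding library sizes and 376 with limma on log2(TPM + 1). They were 962 of 14547 with only the compared libraries and 1377 of 31710 with DESeq2. For GFP-negative cells the count of 4 became 9 with DESeq2, where calls over all genes went from 706 of 16757 to 1635 of 31710. With the replicate number as a block the counts were 8 and 9 for GFP in small intestine and colon, and 0 for their difference. Between tissues they were 2 in GFP-positive and 4 in GFP-negative cells. Calls over all 16757 genes were 1931, 1535, 330, 853 and 944 in the same order. Nkx2-3 (small intestine) and Prrx2 (difference) lost their calls and Cux2 was gained. Leaving out 1 library gave 8 to 12 for GFP in the small intestine, 5 to 12 in the colon and 0 to 5 for their difference. Between tissues it gave 0 to 6 in GFP-positive and 1 to 6 in GFP-negative cells. Calls over all genes ranged from 1239 to 2644, 816 to 1773 and 69 to 1044 for the former 3 counts. For the latter they ranged from 416 to 1050 and from 187 to 1229. The cause of these shifts was not tested. The count without small intestinal GFP-negative replicate 2 was 5 for the difference, with 1044 of 17584 genes called. Without colon GFP-negative replicate 3 it was 1 in GFP-negative cells, with 187 of 17889 genes called. Depth limits the 31 genes under the filter: 1 of them, Barx2, was called in any alternative.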

Other observations

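The Hox genes, which encode partners of the Meis and Pbx proteins, differed mainly between the tissues. Of 32 tested Hox genes 8 were higher and 11 lower in the colon than in the small intestine among GFP-negative cells, and 8 were higher and 8 lower among GFP-positive cells. With GFP, 6 rose and 1 fell in the colon, and 1 rose and 1 fell in the small intestine. Hoxa13, a gene of the hindgut, averaged 29 ± 1.89 CPM (SD, n = 3) in GFP-negative and 4.55 ± 1.92 in GFP-positive colon libraries, and fell with GFP there (log2 difference -2.67 ± 0.44, edgeR adjusted p = 0.00327). Small intestinal libraries held no read of it in GFP-negative cells. Hoxd8 rose with GFP in the colon from 9.45 ± 2.49 to 37.5 ± 6.24 CPM (log2 difference 1.99 ± 0.31, adjusted p = 0.00152). Hoxb5 rose there from 0.889 ± 0.13 to 4.67 ± 1.22 CPM (2.37 ± 0.41, adjusted p = 0.00292), and in GFP-negative cells it was 10.8 ± 2.13 CPM in the small intestine. For Hoxb5 the GFP difference itself differed between tissues (edgeR adjusted p = 0.0266).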
